A study of Homo sapiens with 22 samples.

Results

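The genes of the mitochondrial ribosomal proteins were followed in neuroblastoma cell lines in hypoxia and normoxia, and across lines that differ in their level of MYCN. The members are all genes on the array whose current symbol is MRPL or MRPS followed by a number, each read from the brightest probeset that names that gene alone. This gave 75 of the 19775 genes measured, 48 named MRPL for the large subunit and 27 named MRPS. RefSeq holds 77 such symbols, and MRPL53 and MRPS24 had no probeset of their own.

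As background, mitochondria carry a ribosome of their own, which translates the few proteins encoded in mitochondrial DNA, all of them subunits of the respiratory chain and the ATP synthase. Its RNAs come from mitochondrial DNA, while every one of its proteins is encoded in the nucleus, made in the cytosol and imported. Many of these proteins descend from bacterial ribosomal proteins, and others are found only in mitochondria. In hypoxia cells are known to turn from respiration towards glycolysis, and MYC proteins are known in other cells to raise genes of ribosomes and mitochondria.

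RNA of 11 neuroblastoma cell lines was measured on Affymetrix arrays after 18 h in hypoxia (1% O2) and after 18 h in normoxia (20% O2), with 1 array per line and condition and 22 arrays in all. From a cell line collection came ACN, GI-LI-N, SK-N-SH, IMR-32, SK-N-F1, GI-ME-N, SK-N-BE2(C) and LAN-1, and SHEP-2 and both forms of SHEP21N came from a laboratory. SHEP21N carries a MYCN transgene: it was used with MYCN overexpression ("SHEP21N MYCN on") and, under 50 ng/ml tetracycline, without it ("SHEP21N MYCN off"). The labels give no MYCN status for the other 9 lines, and the 3 SHEP lines are relatives, so p-values that count 11 independent lines may be too small.

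The labels were checked before the members were read. Of 9 measured genes known to respond to hypoxia, among them VEGFA and BNIP3, 6 were called higher by limma at an adjusted p under 0.05, against 0.147% of all genes, and their median change was between 1.23 and 3.53 log2 in each of the 11 lines. MYCN signals in normoxia were between 5788 and 55610 in GI-LI-N, SK-N-BE2(C), IMR-32, LAN-1, SK-N-SH and SK-N-F1, and at most 55.3 in GI-ME-N, ACN and the 3 SHEP lines. A second MYCN probeset read 830.2 on the hypoxic array labelled SHEP21N MYCN on but 13.7 on its normoxic array, against 25.3 in hypoxia and 28.7 in normoxia for SHEP21N MYCN off. That same normoxic array had a GAPDH 3' to 5' ratio of 67.3 and an ACTB ratio of 94.0, where no other array exceeded 1.40 and 5.05, a measure that rises as RNA is degraded. SHEP cells are known to descend from SK-N-SH, yet the arrays labelled SK-N-SH had the MYCN signals of a high-MYCN line (35220 in hypoxia, 33500 in normoxia). Over all genes, as deviations from the mean of the lines in normoxia, they correlated at up to 0.48 with IMR-32 and GI-LI-N, and GI-LI-N correlated at 0.43 with IMR-32. No pair of lines outside those 3 and the SHEP lines exceeded 0.23. The counts of members called and some values of single genes are therefore also given without lines labelled SK-N-SH or SHEP21N MYCN on. The groups by role, the other gene lists and most values of single genes are given with these lines only.

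Neuroblastic markers (9 of 10 measured, such as GATA3 and CHGA) had a median relative signal, the signal divided by the array median, of 33.2 to 110.3 in the 6 high-MYCN lines and of 0.150 to 0.892 in the 5 low-MYCN lines. Adherent, mesenchymal-like markers (10 of 10, such as FN1 and CD44) ran the other way, with 0.804 to 3.04 in the high-MYCN lines and 36.4 to 176.5 in the low-MYCN lines. MYCN level and cell state therefore cannot be told apart in these lines. Over 8 markers of immune, epithelial and endothelial cells the highest relative signal on any array was 13.2, in SK-N-F1. Each array is scaled, so a change in all RNA of a cell would not show, and in bulk RNA fewer cells of one kind and less RNA per cell cannot be told apart.

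Promoter windows of 6 members are printed because the results below name these genes and because they hold, or lack, the letters of factors known to bind genes of mitochondrial proteins. They are RefSeq sequences of GRCh38.p14, from 150 bases before to 30 after an annotated start. Capitals mark matches, on either strand, to the NRF1 motif (GCGCA and GCGC with any base between them), the ETS or GABP core (CCGGAAG), the YY1 core (AAGATGGC) or the E-box CACGTG, a site of MYC proteins. The windows are chr21:25607452-25607631 (minus strand) for MRPL39, chr1:1407264-1407443 (minus) for MRPL20, chr14:22829737-22829916 (plus) for MRPL52, chr13:21176508-21176687 (plus) for MRPL57, chr11:6683311-6683490 (minus) for MRPL17 and chr7:141014650-141014829 (minus) for a second start of MRPS33.
MRPL39: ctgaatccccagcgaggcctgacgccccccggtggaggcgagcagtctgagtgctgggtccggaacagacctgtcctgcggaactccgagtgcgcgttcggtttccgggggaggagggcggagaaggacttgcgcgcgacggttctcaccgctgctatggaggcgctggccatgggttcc
MRPL20: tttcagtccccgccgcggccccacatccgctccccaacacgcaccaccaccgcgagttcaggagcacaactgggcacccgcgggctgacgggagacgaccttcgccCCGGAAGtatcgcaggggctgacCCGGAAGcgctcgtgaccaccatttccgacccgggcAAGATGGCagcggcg
MRPL52: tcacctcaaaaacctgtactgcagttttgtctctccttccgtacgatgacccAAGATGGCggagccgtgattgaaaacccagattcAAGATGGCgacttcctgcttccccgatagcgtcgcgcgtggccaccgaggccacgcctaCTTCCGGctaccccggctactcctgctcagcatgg
MRPL57: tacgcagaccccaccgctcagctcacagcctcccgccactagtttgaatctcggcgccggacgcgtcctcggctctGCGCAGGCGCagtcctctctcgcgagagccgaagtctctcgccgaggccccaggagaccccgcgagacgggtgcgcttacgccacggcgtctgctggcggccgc
MRPL17: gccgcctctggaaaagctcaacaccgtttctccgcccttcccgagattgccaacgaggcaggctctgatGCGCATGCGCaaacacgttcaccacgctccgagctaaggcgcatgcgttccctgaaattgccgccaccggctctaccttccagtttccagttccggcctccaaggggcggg
MRPS33: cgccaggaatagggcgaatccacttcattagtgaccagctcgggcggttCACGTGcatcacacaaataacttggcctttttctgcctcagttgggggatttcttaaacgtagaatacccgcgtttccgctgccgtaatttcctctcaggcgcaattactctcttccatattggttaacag

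MRPL20 and MRPL52 hold both ETS and YY1 letters, MRPL57 and MRPL17 hold the NRF1 motif, and the MRPL39 window has no match. MRPS33 holds an E-box at the second start printed here, while the window of its other start holds an ETS or GABP match and no E-box. RefSeq had 83 windows for 67 of the members, each from 250 bases before to 50 after a start. The YY1 core stood in 26.5% of them, against 3.60% of the windows of all genes on the array. For the ETS or GABP core the shares were 38.6% of member windows and 12.9% of the windows of array genes. The NRF1 motif was found in 12.05% against 7.58%, and the E-box in 10.8% against 8.36%. At least 1 of the 4 stood in 66.3% of member windows and in 27.5% of those of array genes. These are matches of letters, not measured binding.

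The question of the first comparison was whether these genes changed with oxygen. None of the 75 members was called by limma with the cell line as a block (adjusted p under 0.05 after Benjamini-Hochberg over all genes), in a table where 0.162% of genes were called in either direction (0.147% higher and 0.0152% lower). The smallest adjusted p of a member was 0.165. The values nevertheless lay mostly on one side. The log2 change, hypoxia minus normoxia, had a median of −0.19 over the members, against −0.04 over all genes, and it was negative for 66 of 75 members, against 55.6% of all genes. At an unadjusted p under 0.05, 27 members were lower in hypoxia and 0 higher, where 7.07% of all genes were lower and 3.6% higher. A paired t-test with the same adjustment called 2 members, MRPL39 and MRPL9, both lower, and limma called MRPL39 alone (adjusted p = 0.0492) when genes with a mean signal below 100 were left out.

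The members are bright on these arrays, so they were also set beside the 5909 genes whose mean log2 signal was at least that of the dimmest member. Of those, 66.6% had a negative change, 13.6% were lower at the unadjusted threshold, and the median change was −0.07. Counting lines instead of p-values, 32 of 75 members (42.7%) were lower in hypoxia in 9 or more of the 11 lines, against 9.84% of all genes and 20.7% of the bright genes. A single member, MRPL39, was lower in all 11 lines, and 9 others were lower in 10. The changes were small: they ran between −0.47 for MRPS18C and 0.28 for MRPS6, with a median SE of 0.12.

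**Figure D1:**
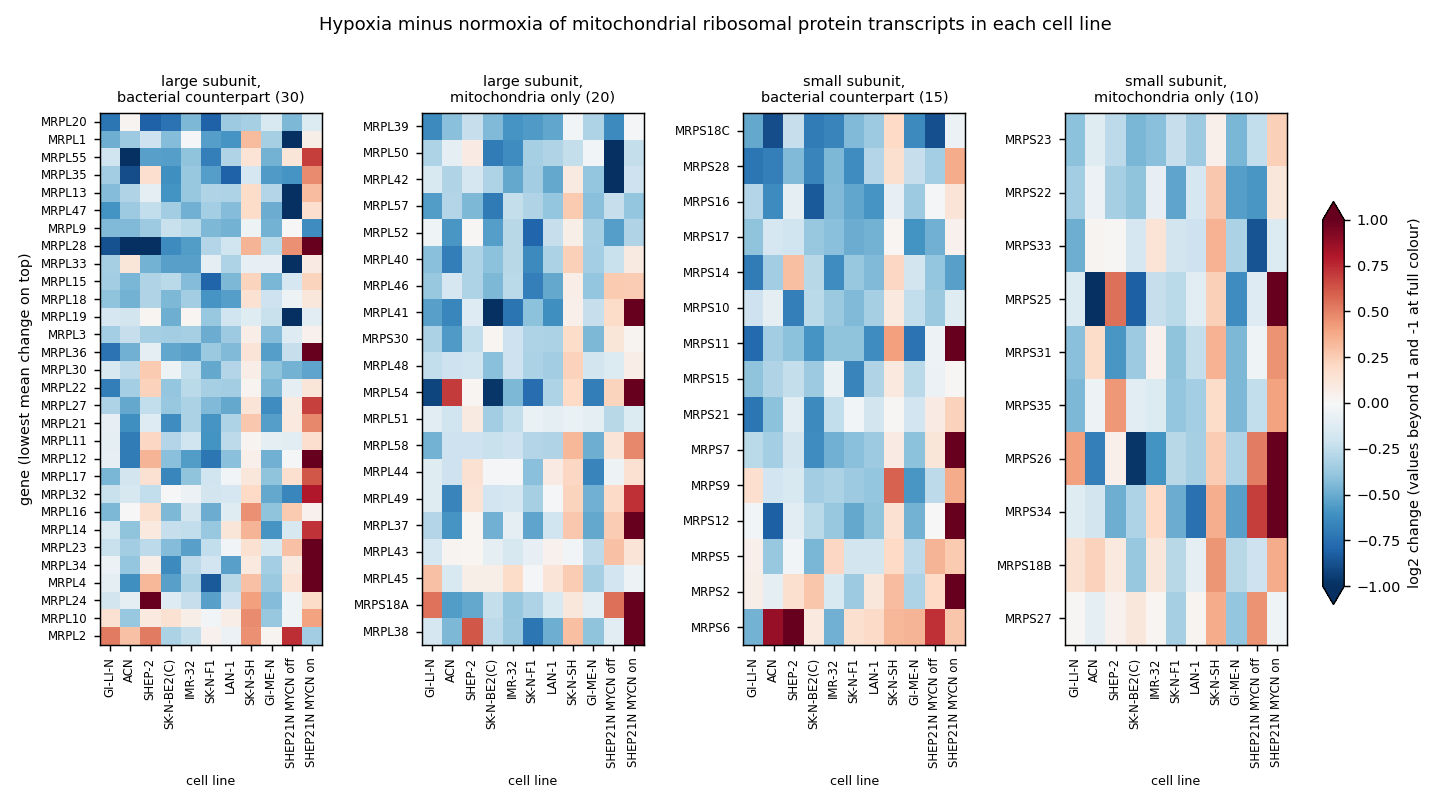
Log2 change, hypoxia minus normoxia, of each of the 75 members (down the page, lowest mean change on top) in each of the 11 cell lines (across), in 4 panels by subunit and origin of the protein. Blue stands for lower in hypoxia and covers most cells, apart from the columns of SK-N-SH and SHEP21N MYCN on.

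The lines did not share this pattern equally. The median change of the members was −0.40 in SK-N-BE2(C), −0.39 in GI-ME-N, −0.39 in SK-N-F1, −0.34 in ACN, −0.31 in GI-LI-N, −0.31 in LAN-1 and −0.28 in IMR-32. In each of these 7 lines at least 65 of the 75 members were lower in hypoxia, against 53.25% (ACN) to 63.7% (GI-ME-N) of all genes. SHEP-2 had a median of −0.11 with 42 members lower, and SHEP21N MYCN off one of −0.06 with 46 lower. SK-N-SH had a median of 0.18 with 10 members lower, against 38.6% of all genes. SHEP21N MYCN on had one of 0.24 with 17 lower, against 50.8% of all genes. Over the lines the mean of these medians was −0.20 ± 0.23 (SD, n = 11).

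The members' median varied over the lines together with that of other genes. The median over the bright genes was between −0.28 in GI-ME-N and 0.15 in SK-N-SH, and over the 11 lines it followed the members' median (Pearson's r = 0.87, a description, since both come from the same arrays and the same scaling). The members' median lay below that of the bright genes in 9 of the 11 lines. With the signals as deposited, not divided by the array median, the median of SK-N-SH was 0.03 with 33 members lower, and that of SHEP21N MYCN on 0.02 with 35 lower, while the other 9 lines stayed below 0. Without the lines labelled SK-N-SH and SHEP21N MYCN on, the median change of the members was −0.30, against −0.07 over all genes. In that fit limma called 0 members (smallest adjusted p 0.0922), and 48 members were lower at the unadjusted threshold, as were 1825 of all genes. The lines left out are the only ones with a members' median above 0, and they were chosen after the data were seen. A lower median follows from that choice, so this fit is no separate check of the direction.

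**Figure D2:**
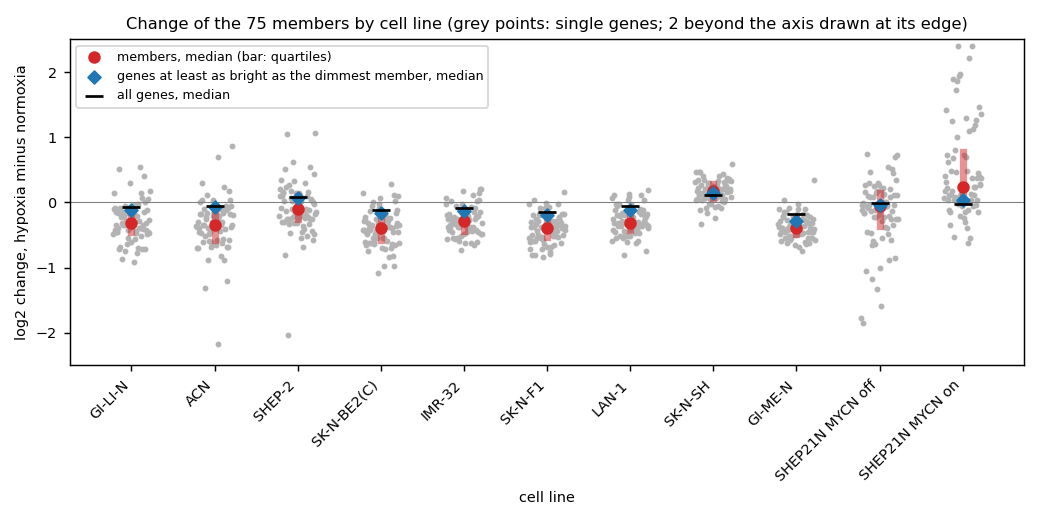
Log2 change, hypoxia minus normoxia (vertical axis), in each of the 11 cell lines (horizontal axis). Grey points are the 75 members, red points and bars their median and quartiles, blue diamonds the median of the genes at least as bright as the dimmest member, and black dashes the median of all genes. The red points lie below the black dashes in 9 lines, and above them in SK-N-SH and SHEP21N MYCN on.

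By role, the counts below stand beside 7.07% of all genes and 13.6% of the bright genes that were lower at the unadjusted threshold. Among the 30 proteins of the large subunit with a bacterial counterpart the median change was −0.23, with 12 lower at the unadjusted threshold. The 20 large-subunit proteins found only in mitochondria had a median of −0.17, with 6 lower. Of the 15 small-subunit proteins with a bacterial counterpart, 7 were lower and the median was −0.23. The 10 small-subunit proteins found only in mitochondria had a median of −0.12, with 2 lower (MRPS22 and MRPS23), which with so few genes is close to the share of the bright genes. None was higher at that threshold in any of the 4 groups. No difference between the groups was tested.

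MRPL39, a protein of the large subunit found only in mitochondria and related to the enzyme that charges threonine tRNA, had the smallest p. Its relative signal was 7.40, 20.4 and 40.7 in hypoxia (lowest, median and highest of 11 lines), against 9.94, 30.7 and 50.5 in normoxia. ACN had the lowest and GI-ME-N the highest value in both conditions, so the ranges overlapped widely and the shift shows only within lines. The log2 change was −0.40 ± 0.09 (SE, n = 11 lines; limma, adjusted p = 0.165), or 0.757-fold, and it lay between −0.64 in GI-LI-N and −0.02 in SHEP21N MYCN on. MRPL20, a protein of the large subunit with a bacterial counterpart, had relative signals of 29.7, 43.0 and 165.8 in hypoxia, against 40.5, 71.3 and 183.5 in normoxia. It was lower in hypoxia in 10 of 11 lines, ACN being the exception at 0.03, and the log2 change was −0.45 ± 0.11 (limma, adjusted p = 0.175). MRPL9, another large-subunit protein with a bacterial counterpart, had 24.5, 67.2 and 110.9 in hypoxia, against 33.3, 81.9 and 169.9 in normoxia. It was lower in 10 lines and close to equal in SHEP21N MYCN off. Its log2 change was −0.35 ± 0.09 (limma, adjusted p = 0.196).

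MRPS18C is a small-subunit protein of a family of 3 proteins derived from 1 bacterial protein. In the groups by role it was counted with a bacterial counterpart, and MRPS18A and MRPS18B as found only in mitochondria. MRPS18C had the lowest change of all members. Its relative signals were 13.0, 21.7 and 52.3 in hypoxia, against 23.99, 31.7 and 67.0 in normoxia. It was lower in 10 lines and higher by 0.20 in SK-N-SH, with a log2 change of −0.47 ± 0.12 (limma, adjusted p = 0.192). Both of its other probesets were dim, with mean signals of 73.5 and 43.5, and averaging all 3 gave a change of 0.14. The other members of the family had changes nearer to 0. MRPS18B, a small-subunit protein, had 11.5, 23.1 and 74.9 in hypoxia and 10.7, 23.3 and 59.1 in normoxia, with a change of 0.01 ± 0.10. MRPS18A, which sits in the large subunit, had 3.19, 12.2 and 27.0 in hypoxia and 3.76, 11.2 and 19.1 in normoxia. Its change of 0.15 ± 0.27 held a value of 2.72 in SHEP21N MYCN on, without which the mean was −0.10, and its second probeset had a mean change of −0.19. No difference between the 3 genes was tested.

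The 4 other members with the smallest p were 2 proteins of each subunit. MRPS17 and MRPS16 belong to the small subunit, and defects of MRPS16 are known to cause a mitochondrial translation disease. MRPS17 had relative signals of 15.2, 26.6 and 52.9 in hypoxia, against 17.1, 35.1 and 64.4 in normoxia, and a log2 change of −0.32 ± 0.09. MRPS16 had 9.67, 19.9 and 56.1 in hypoxia, against 15, 24.9 and 54.2 in normoxia, with a change of −0.34 ± 0.11. Both were higher in hypoxia in SHEP21N MYCN on, by 0.04 and 0.13, and MRPS17 also in SK-N-SH. MRPL57 and MRPL52 are large-subunit proteins found only in mitochondria. MRPL57 had 29.2, 57.5 and 163.7 in hypoxia, against 35.9, 69.4 and 215.2 in normoxia, with a change of −0.34 ± 0.10 and SK-N-SH alone higher in hypoxia (0.26). MRPL52 had 6.14, 26.5 and 105.6 in hypoxia, against 9.17, 31.6 and 129.9 in normoxia, with a change of −0.33 ± 0.10. Their adjusted p (limma) lay between 0.2495 for MRPS17 and 0.294 for MRPS16. Other probesets had mean changes of −0.11, −0.06 and −0.43 for MRPL57, −0.14 for MRPL52 and −0.07 for MRPS16, while MRPS17 had 1 probeset.

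**Figure D3:**
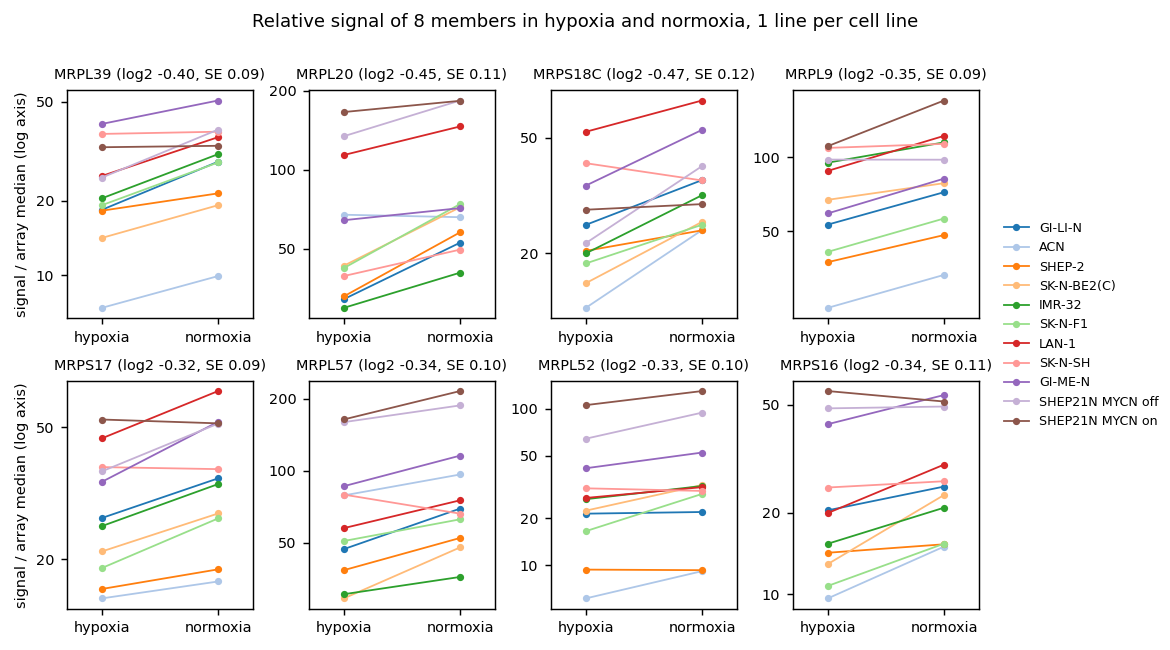
Relative signal (signal over array median, log axis) of the 8 members with the smallest p in hypoxia (left) and normoxia (right), with 1 coloured line per cell line. Most lines slope upwards to the right, by 0.32 to 0.47 log2 in the mean, while the spread between cell lines is far wider than the step between conditions.

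Few members pointed the other way, and the 2 named here were chosen after their values were seen. MRPS6, a small-subunit protein with a bacterial counterpart, had the highest change. Its relative signals were 29.1, 46.0 and 178.0 in hypoxia, against 21.7, 58.9 and 140.9 in normoxia. It was higher in 9 of 11 lines, most of all in SHEP-2 (1.06) and ACN (0.87), and lower in GI-LI-N and IMR-32, with a log2 change of 0.28 ± 0.15 (limma, adjusted p = 0.538). MRPL38, a large-subunit protein found only in mitochondria, had a mean change of 0.18 ± 0.38. It was lower in hypoxia in 8 lines, and its mean rested on SHEP21N MYCN on, where it was higher by 4.04 over the normoxic array with the high 3' to 5' ratios. Without that line the mean was −0.20, and −0.26 without SK-N-SH too.

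Where a gene was represented by several probesets the others mostly had the same sign: 45 of 65 in all, and 37 of the 50 with a mean signal of at least 100. Every member had a mean signal of at least 793.

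The second comparison was that of the baseline, normoxia, with the MYCN level of the lines. No member was called for a slope on MYCN by limma (adjusted p under 0.05), where 6.93% of all genes were called, nor without the lines labelled SK-N-SH and SHEP21N MYCN on. At an unadjusted p under 0.05, 2 members had a positive slope and 3 a negative one, against 11.2% and 11.1% of all genes. Of the 5909 bright genes, 807 had a positive slope and 338 a negative one at that threshold. The slope, given as log2 signal per 10 log2 units of MYCN where the lines ran between −3.94 and 9.09, had a median of 0.05 over the members. Over the bright genes the median slope was 0.23. The slope of the members ran between −0.999 for MRPL57 and 1.44 for MRPL38, with a median SE of 0.40. Not 1 of the 75 members separated the 6 high-MYCN lines from the 5 low-MYCN lines without overlap, where 6.76% of all genes did. The sign of the members' median was not stable: it was −0.15 with the values as deposited and −0.12 after quantile normalization, where the median of all genes was −0.21 and −0.12, against −0.03 in the array-median scale. The members differed between lines all the same. Their SD over the 11 normoxic arrays had a median of 0.69 log2, against 0.73 for the bright genes and 1.10 for all genes.

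MRPL57 had the smallest p. Its relative signal in normoxia was 35.9, 64.3 and 75.1 in the high-MYCN lines (lowest, median and highest of 6), against 52.3, 115.5 and 215.2 in the low-MYCN lines (of 5), with a slope of −0.999 ± 0.37 (SE; limma, adjusted p = 0.131). SHEP-2, with the lowest value of the low-MYCN lines, lay inside the range of the high-MYCN lines. The other 3 probesets of MRPL57 had slopes of 0.49, −0.13 and −0.96. The mean of all 4 had one of −0.40, and the brightest alone one of −0.55 without both forms of SHEP21N. MRPL17, a large-subunit protein with a bacterial counterpart, ran the same way. It had 19.8, 22.7 and 27.4 in the high-MYCN lines, against 20.9, 42.5 and 71.2 in the low-MYCN lines, with a slope of −0.77 ± 0.32 (adjusted p = 0.175, limma), and SHEP-2 was again the line that overlapped. MRPS33, a small-subunit protein found only in mitochondria, had 24.1, 36.2 and 67.4 in the high-MYCN lines, against 38.0, 70.2 and 100.9 in the low-MYCN lines, and a slope of −0.79 ± 0.36. MRPL57, MRPL17 and MRPS33 were the 3 members with a negative slope at an unadjusted p under 0.05 (limma). Without both forms of SHEP21N, 0 members had a negative slope at that threshold, where 1409 of all genes did, and 3 members had a positive one.

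MRPL48, a large-subunit protein found only in mitochondria, ran the other way. It had 27.0, 38.4 and 82.5 in the high-MYCN lines, against 12.6, 20.5 and 30.2 in the low-MYCN lines, with a slope of 0.95 ± 0.36 (limma, adjusted p = 0.140). SHEP21N MYCN on, at 30.2, was the highest of the lines with low MYCN signal. It and SHEP21N MYCN off, at 27.7, both lay above SK-N-F1, the lowest of the high-MYCN lines at 27.0. MRPL44, a large-subunit protein related to an RNA-cutting enzyme, had 15.3, 19.9 and 35.6 in the high-MYCN lines, against 5.08, 9.96 and 24.3 in the low-MYCN lines, and a slope of 0.80 ± 0.40 (unadjusted p = 0.0683), or 0.49 as the mean of both its probesets. MRPL38 had 20.9, 32.5 and 50.2 in the high-MYCN lines, against 2.48, 8.03 and 31.9 in the low-MYCN lines, where the lowest value came from the array with the high 3' to 5' ratios. Its slope was 1.44 ± 0.66 (limma, adjusted p = 0.222), and 0.97 without the lines labelled SK-N-SH and SHEP21N MYCN on.

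MRPL44 and the 2 remaining members had an unadjusted p above 0.05 in limma. MRPS22, a small-subunit protein found only in mitochondria, had 22.6, 26.9 and 46.8 in the high-MYCN lines, against 23.5, 54.8 and 72.0 in the low-MYCN lines, and a slope of −0.63 ± 0.35, or −0.40 without both forms of SHEP21N. MRPL35, a large-subunit protein with a bacterial counterpart, had 12.8, 15.3 and 19.9 in the high-MYCN lines, against 11.2, 28.8 and 36.9 in the low-MYCN lines, with a slope of −0.67 ± 0.33. Both of its other probesets had positive slopes, 0.37 and 0.66, and the mean of all 3 had one of 0.12. Without both forms of SHEP21N its slope was −0.44.

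**Figure D4:**
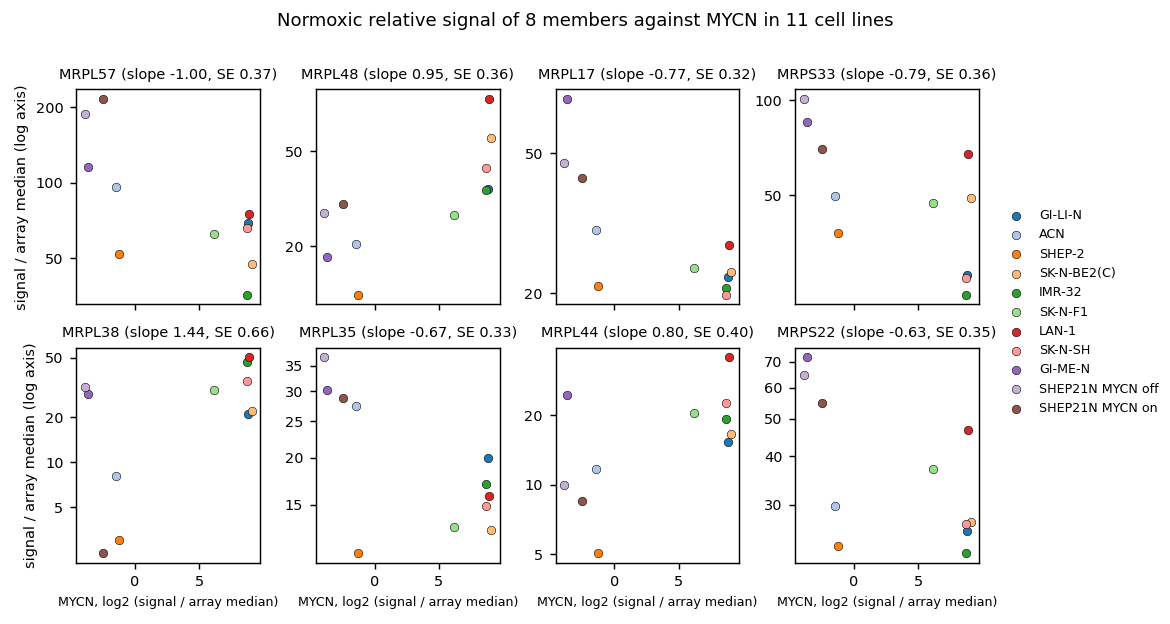
Relative signal in normoxia (signal over array median, log axis) of the 8 members with the smallest p for the MYCN slope, against the log2 MYCN level of each cell line, 1 point per line. In every panel the 5 low-MYCN lines on the left overlap in height with the 6 high-MYCN lines on the right.

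Whether the hypoxia change itself followed MYCN was tested as a slope over the 11 lines. Limma called 0 of 75 members, as it did 0% of all genes. At an unadjusted p under 0.05, 1 member had a negative slope, against 2.23% of all genes, and 0 a positive one, against 2.81%. That member was MRPS6, with a slope of −0.58 per 10 log2 units of MYCN. The difference between the hypoxia changes of the 3 SHEP lines and of the 8 collection lines was tested as an interaction. It called 0 members by limma, against 0.0101% of all genes. At an unadjusted p under 0.05, 18 members had a higher change in the SHEP lines, against 7.99% of all genes, and 0 a lower one, against 3.72%. Of the 5909 bright genes, 843 had a higher change and 141 a lower one at that threshold. The count of 18 members was 1 without SHEP21N MYCN on, and 10 with the signals as deposited. Provider, kinship and the array handling of SHEP21N cannot be told apart there. The lowest signal on the SHEP21N arrays was 3.3, while that of each other array was at most 0.803. What this difference does to dim signals was not tested.

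SHEP21N is the one pair of lines that the labels set apart by MYCN, with 1 array per label and condition and no test. The second MYCN probeset, given above, was higher on the array labelled MYCN on in hypoxia only. The brighter one read 6 on the array labelled MYCN on and 12.7 on that labelled MYCN off in hypoxia, and 19 and 6 in normoxia, all near the bottom of its range. In hypoxia the member difference, MYCN on minus MYCN off, had a median of 0.39 log2, against 0.02 over all genes and 0.05 over the bright genes, and 67 of 75 members were higher on the array labelled MYCN on. None of them differed 2-fold, where 24.3% of all genes did. In normoxia the median was −0.22, close to that of the bright genes (−0.20) and against −0.08 over all genes, with 28 members higher, and 9 members differed 2-fold (8 of them lower), where 32.5% of all genes did. The normoxic array labelled MYCN on is the one with the high 3' to 5' ratios and without the MYCN signal, so the normoxic pair compares arrays of unequal RNA quality and shows no higher MYCN signal at the second probeset under the label MYCN on. The part of RNA quality in these values was not tested.

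By label alone, 26 members were higher on the array labelled MYCN on in both conditions, against 25% of all genes, and 6 were lower in both, against 27.5%. MRPL52 had relative signals of 105.6 on the array labelled MYCN on and 64.4 on that labelled MYCN off in hypoxia, and of 129.9 and 94.5 in normoxia. MRPL11, a protein at the site of the large subunit that meets the elongation factors, had 57.7 under the label MYCN on and 37.1 under MYCN off in hypoxia, and 51.4 and 40.2 in normoxia. The reverse held for MRPS18A and MRPL28. MRPS18A had 24.7 under the label MYCN on and 27.0 under MYCN off in hypoxia, and 3.76 and 18.4 in normoxia. MRPL28, a large-subunit protein with a bacterial counterpart, had 19.9 under the label MYCN on and 26.2 under MYCN off in hypoxia, and 5.36 and 19.0 in normoxia. Both normoxic gaps again rest on that array.

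**Figure D5:**
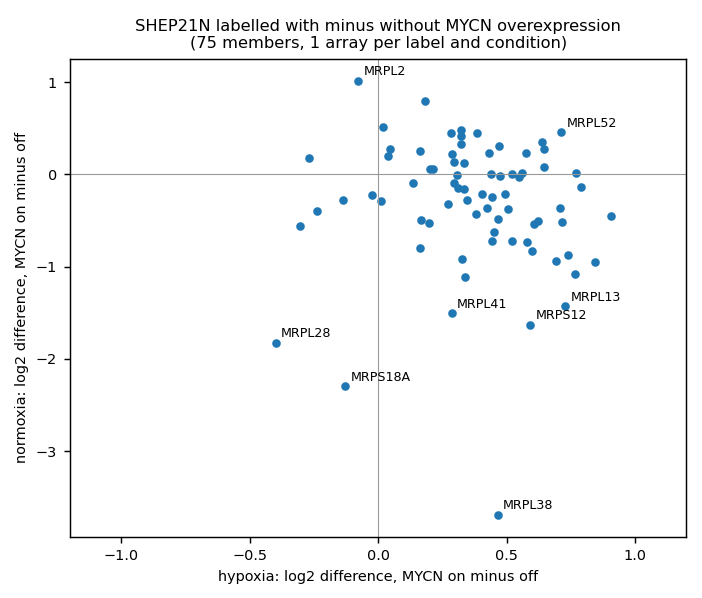
Log2 difference between SHEP21N labelled MYCN on and MYCN off, in hypoxia (horizontal axis) and in normoxia (vertical axis), with 1 point for each of the 75 members. Of these, 67 lie to the right of 0 in hypoxia, while in normoxia 28 lie above 0 and MRPL38, MRPS18A and MRPL28 fall furthest below it.

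The other genes of mitochondrial translation were read beside the members. Of 74 listed, 70 were measured: further ribosomal proteins, translation factors, assembly factors, proteins that transcribe mitochondrial DNA or handle its RNA, the enzymes that charge mitochondrial tRNAs, and known regulators of such genes. In hypoxia limma called 0 of the 70, with a median change of −0.15, and at the unadjusted threshold 18 were lower and 0 higher, against 7.07% of all genes and 13.6% of the bright genes lower and 3.6% of all genes higher. Of the 8 genes that transcribe mitochondrial DNA or handle its RNA, 5 were among those 18, and their median change was −0.31. For the MYCN slope limma called 1 of the 70, fewer than the 6.93% of all genes called. It was NARS2, the enzyme that charges the mitochondrial asparagine tRNA. Its relative signal in normoxia was 35.7 to 64.1 in the 6 high-MYCN lines, against 12.04 to 19.8 in the 5 low-MYCN lines, with no overlap, as for 6.76% of all genes. The slope was 1.47 ± 0.29 (limma, adjusted p = 0.00994).

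Genes of proliferation (10 of 10 measured, such as MKI67 and MCM2) were also read in hypoxia. Limma called 0 of them, 3 were lower, against 7.07% of all genes, and 0 higher at the unadjusted threshold, and their median change was −0.19, the same as that of the members. By line their median was between −0.54 in GI-ME-N and 0.16 in SK-N-SH, and its part in the members' changes was not tested.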

How the data were processed

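The intensity values were deposited by the authors as signals of the MAS5 algorithm on a linear scale, scaled to 500 (trimmed mean of each array between 500.01 and 500.07), with array medians between 69.4 and 133.6. Array-to-array precision is limited by the number of arrays, since no line has replicate arrays in a condition. As in the study's methods, signals were divided by the median of their array, and log2 was taken. Of 54675 probesets, 41091 name 1 gene and were used through the platform annotation, which gave 19775 genes, each by its brightest probeset. Tests across all genes used limma 3.58.1 in R 4.3.3 with Benjamini-Hochberg adjustment and no fold limit. The hypoxia test had the cell line as a block, since both arrays of a pair come from the same line: their deviations from the condition means correlated at 0.53 to 0.69. The MYCN slopes used the log2 MYCN level as a continuous covariate. Python 3.11.15 and pandas 2.3.3 made the tables and matplotlib 3.10.9 the figures, and the fits were checked on simulated data. Genes named were the 8 members with the smallest p in each comparison, the MRPS18 family, the members with the largest and smallest SHEP21N differences of like sign, and called genes of the pathway. The members and lists were chosen with earlier results of these data known. The alternatives were quantile normalization, the signals as they were deposited, genes with a mean signal of 100 or more, a floor of 50, a mean over a gene's probesets, no block, a paired t-test, lines left out or averaged, the second MYCN probeset and hypoxic arrays for the MYCN slope. Leaving out SK-N-SH and SHEP21N MYCN on together was chosen after seeing the data. The tumor profiles of the study were not analysed here.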

Additional observations from a re-analysis of the deposited data

How the results depend on the processing

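The 0 members called for hypoxia stayed 0 in every alternative run, each line left out included (range 0 to 0), except with genes of a mean signal of at least 100, which called 1 (MRPL39, limma, adjusted p = 0.0492), and with the paired t-test, which called 2 (MRPL39 and MRPL9, adjusted p 0.0373 and 0.0361). Of all genes tested, the former run called 59 higher and 45 lower, and the paired t-test 36 higher and 69 lower. The 27 members lower at an unadjusted p under 0.05 became 0 without the cell line as a replicate block, 44 without both forms of SHEP21N and 48 without SK-N-SH and SHEP21N MYCN on. With 1 line left out in turn that count was between 21 and 40, with 40 reached without SHEP21N MYCN on. Of the 19775 genes, 1398 were lower at that threshold in the main fit and 157 without the block. The all-gene count was 1674 without both forms of SHEP21N and 1825 without SK-N-SH and SHEP21N MYCN on. It was between 1136 and 1572 with 1 line left out, with 1572 reached without SHEP21N MYCN on. The median change of the members stayed between −0.30 and −0.15. The −0.30 came from leaving out SK-N-SH and SHEP21N MYCN on, the lines with a members' median above 0. For the MYCN slope in normoxia the count of 0 became 1 with the values as deposited (MRPL17), 2 after quantile normalization (MRPL17 and MRPL57) and 1 with a floor of 50 (MRPL48), and it was 0 with each line left out. Over all genes 694 were called higher and 795 lower with the values as deposited, and 727 and 873 after quantile normalization. With the floor of 50 these counts were 1512 and 737. The slope of the hypoxia change on MYCN and the SHEP interaction called 0 members in all alternatives run. Averaging all probesets turned MRPS18C in hypoxia to 0.14 and the MYCN slope of MRPL35 to 0.12. The cause was not tested. With 1 array per line and condition, the median SE of a member's hypoxia change was 0.12, against a median change of −0.19.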
